A study of Mus musculus with 54 samples.

Results

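The collagen genes were followed as a family of 28 among the 13611 genes for which transcript levels were deposited, taken as every gene whose symbol is Col, a number, a and a number. They comprise 8 genes of fibrillar collagens (Col1a1, Col1a2, Col3a1, Col5a1, Col5a2, Col11a1, Col11a2 and Col27a1), 4 of the basement membrane collagen type IV (Col4a1, Col4a2, Col4a5 and Col4a6) and 16 others. Among the others are 5 genes of the microfibrillar collagen VI (Col6a1 to Col6a5), 4 of collagens that bind to fibrils (Col12a1, Col14a1, Col16a1 and Col20a1) and the multiplexins Col15a1 and Col18a1. The rest are Col7a1, Col8a1, Col8a2, Col23a1 and Col28a1. The series title concerns differences of p53 dynamics between tissues and radiation sensitivity. Messenger RNA came from 4 organs of C57B6 mice, namely thymus, spleen and both the small and the large intestine, with 10 libraries each, and from 14 libraries of NIH3T3, an established line of mouse embryo fibroblasts. In each of these 5 systems the 0 h library was not treated and all others followed 10 Gy of ionizing radiation, hourly up to 8 h (in NIH3T3 up to 12 h) and once more after 24 h. With 1 library per hour, neighbouring hours served as replicates in windows of 1 to 2, 3 to 5, 6 to 8 and, in NIH3T3, 9 to 12 h. Whether hours are separate animals or cultures is not stated in the labels, and p-values measure only how these libraries spread, which may in part be technical. They give no age and no number of animals per library. No unirradiated library exists at a later hour, so radiation cannot be told apart from time since handling.

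Collagens are secreted trimers of chains wound into a triple helix, and the genes encode single chains. Fibrillar collagens of types I, III and V form the cross-linked fibres that bear load in connective tissue, and are made mostly by fibroblasts. Type III is also the collagen of the reticular fibres that carry the stroma of spleen. Type IV collagen forms the sheet-like network of basement membranes under epithelium and around vessels, muscle and fat cells, in which the chains of Col4a1 and Col4a2 assemble into the same trimer. Collagen VI makes beaded filaments close to cells, and the multiplexins lie where basement membrane meets the tissue beneath.

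Col4a1 (chr8:11198423-11312889, build mm10) and Col4a2 (chr8:11312805-11449287) lie head to head on opposite strands, and their RefSeq gene models overlap by 85 bases. The libraries are unstranded, so fragments from the shared bases cannot be assigned to one gene. The pair is shown with the promoters of Col1a2 (chr6:4505618-4541543) and Col3a1 (chr1:45311538-45349706), since the pair and these fibrillar genes followed different time courses. Each sequence runs from 250 bases before to 50 bases after the start site, from RefSeq on GRCm38.p6, the assembly that mm10 names. The start site used for Col4a1 is chr8:11312826, which lies inside the gene model given above. The overlap of 85 bases is that of the gene models, not one counted from this start site. Capitals mark the motif CCAAT. They also mark the motif GGGCGG, to which Sp1 proteins are known to bind. The last motif marked is the TATA box, searched as TATAAA. Each was searched on both strands, and none of the marked motifs in these sequences overlaps another.
Col4a1 promoter, chr8:11312777-11313076, minus strand: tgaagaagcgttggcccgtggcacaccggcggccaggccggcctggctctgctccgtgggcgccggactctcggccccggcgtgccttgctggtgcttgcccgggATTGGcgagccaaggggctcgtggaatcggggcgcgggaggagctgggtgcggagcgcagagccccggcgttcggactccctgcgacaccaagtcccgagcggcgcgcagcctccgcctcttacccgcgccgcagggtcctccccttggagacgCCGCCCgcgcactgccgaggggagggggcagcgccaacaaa
Col4a2 promoter, chr8:11312555-11312854, plus strand: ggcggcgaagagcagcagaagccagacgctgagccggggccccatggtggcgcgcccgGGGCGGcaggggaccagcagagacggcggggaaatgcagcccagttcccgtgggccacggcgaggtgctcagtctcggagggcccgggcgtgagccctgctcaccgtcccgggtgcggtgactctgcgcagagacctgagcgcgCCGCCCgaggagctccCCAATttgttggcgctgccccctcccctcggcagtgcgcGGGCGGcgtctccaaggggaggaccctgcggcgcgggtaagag
Col1a2 promoter, chr6:4505368-4505667, plus strand: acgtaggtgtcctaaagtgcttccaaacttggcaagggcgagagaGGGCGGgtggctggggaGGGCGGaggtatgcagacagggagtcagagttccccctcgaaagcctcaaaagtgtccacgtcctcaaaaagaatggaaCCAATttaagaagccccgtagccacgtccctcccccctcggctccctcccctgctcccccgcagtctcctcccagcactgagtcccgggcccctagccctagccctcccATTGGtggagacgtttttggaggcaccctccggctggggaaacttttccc
Col3a1 promoter, chr1:45311288-45311587, plus strand: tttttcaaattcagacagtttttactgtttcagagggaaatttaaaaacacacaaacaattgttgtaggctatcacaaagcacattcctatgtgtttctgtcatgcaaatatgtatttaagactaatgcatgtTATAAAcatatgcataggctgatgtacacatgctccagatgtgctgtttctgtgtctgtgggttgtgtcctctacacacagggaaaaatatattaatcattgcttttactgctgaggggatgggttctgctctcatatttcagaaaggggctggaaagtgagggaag
The promoter windows of Col4a1 and Col4a2 share the 78 bases from chr8:11312777-11312854. The Col4a1 window held 1 CCAAT and 1 GGGCGG on either strand at a GC content of 74.0%, and the Col4a2 window 1 and 3 at 73.7%. The Col1a2 window held 2 of each at 61.0% GC. The Col3a1 window held neither, but 1 TATAAA, at 37.7% GC. Of all 32851 RefSeq promoters of this length, 37.4% held CCAAT, 35.7% GGGCGG and 13.6% TATAAA on either strand, and the median GC content was 52.7%. Among the 26 promoters listed for 24 of the collagen genes, 9 held CCAAT, 19 GGGCGG and 2 TATAAA.

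Transcript levels are given in FPKM, in which fragments are divided by transcript length and by the mapped total of a library, so that genes can be compared. The totals are not given in the sources at hand. Steps between low values put the deepest library at about 1.87 times the shallowest in small intestine and 4.14 times in thymus, with the other systems between. The shallowest thymus library was that of 8 h, at about 0.246 times the depth of the 0 h library. The tissue labels were compared with marker lists. Summed T cell markers reached 2737 FPKM in untreated thymus, B cell markers 2206 FPKM in untreated spleen, and enterocyte markers 61926 FPKM in untreated small intestine. Some libraries carried transcripts of another organ. Enterocyte markers summed to 6058 FPKM in the 24 h thymus library, against 8.71 to 33.4 FPKM at 0 to 8 h, and acinar pancreas markers reached 48350 FPKM in the 6 h spleen library. Enterocyte markers also ranged from 88.7 to 22675 FPKM over the large intestine libraries at 1 to 5 h, with the lowest at 1 h and the highest at 2 h.

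The collagens a system expressed, and their levels, differed widely between the 5 systems. With a filter at a mean of 1 FPKM per system, the number of the 28 genes that passed was 14 for small intestine, 20 each for large intestine and spleen, 19 for thymus and 18 for NIH3T3, and 9 passed in all systems. In the same order these are 50.0%, 71.4%, 71.4%, 67.9% and 64.3% of the family, against 83.7%, 87.1%, 86.6%, 91.3% and 76.3% of all 13611 genes. NIH3T3 was dominated by type I collagen, with a median over the 8 libraries at 1 to 8 h of 528 FPKM for Col1a2 and 131 FPKM for Col1a1. Col14a1, Col15a1 and Col18a1, all expressed in tissues, had medians of 0.0135, 0.0165 and 0.144 FPKM in NIH3T3, and Col6a4, Col6a5 and Col8a2 were listed at a median of 0. Conversely, Col11a1 and Col4a6 had a mean of at least 1 FPKM in NIH3T3 alone.

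**Figure D1:**
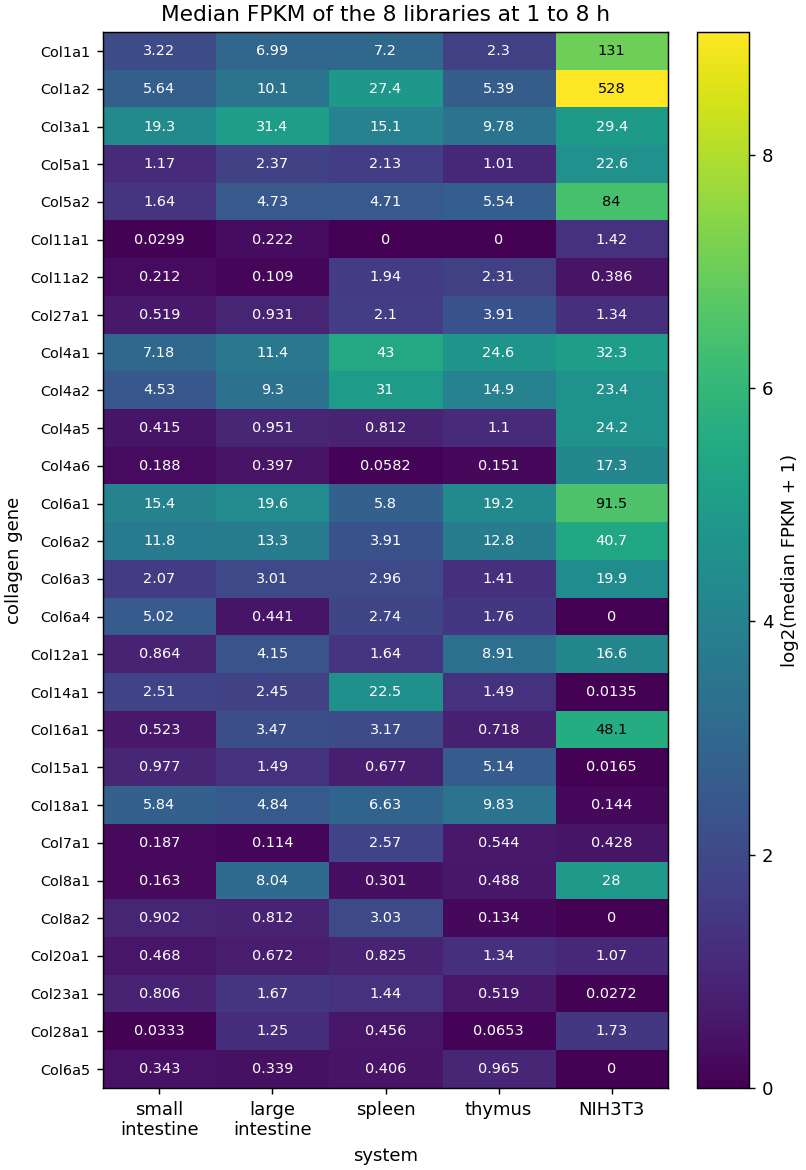
Median FPKM of each of the 28 collagen genes over the 8 libraries at 1 to 8 h (rows) in the 5 systems (columns), with the colour on a log2 scale of FPKM + 1 and the FPKM printed in each cell. Col1a2 at 528 FPKM in NIH3T3 is the highest cell. The highest values in small and large intestine are those of Col3a1, in spleen and thymus those of Col4a1.

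The intestines differed in collagen level at most irradiated hours. The 28 genes summed to 102.5 FPKM in small and 103.6 FPKM in large intestine at 0 h, where collagen VI was lower in the large (24.6 against 42.2 FPKM). The sum was higher in large intestine at 1, at 3 to 8 and at 24 h, and lower at 2 h (97.2 against 120 FPKM). Over the libraries at 1 to 8 h, 14 of 18 collagens tested were higher in large intestine and 1 was lower, where 32.8% of all genes tested passed the same limma test as higher and 38.5% as lower. The filter used the mean over both intestines, so a gene could enter through 1 of them. Col8a1, Col12a1, Col16a1 and Col23a1 had means below 1 FPKM in small intestine, and Col6a4 in large intestine. Part of these counts can follow from that filter. Col8a1, a short-chain network collagen, ranged from 1.93 to 18.8 FPKM in large intestine with a median of 8.04 FPKM, and from 0.109 to 0.306 FPKM in small intestine. Its groups did not overlap, and the log2 fold change was 2.69 ± 0.16 (SE, adjusted p = 5.9e-13). Col16a1 and Col12a1, both collagens that bind to fibrils, were higher by log2 1.43 ± 0.19 and 1.31 ± 0.14. The fibrillar Col1a1, Col1a2, Col3a1, Col5a1 and Col5a2 and the type IV Col4a1 and Col4a2 were all among the higher genes, by log2 0.48 to 0.95, though Col5a1 was not under quantile normalization (adjusted p = 0.0987). Of 22 alternatives, the call was lost in 10 for Col6a3 (adjusted p up to 0.367), in 6 for Col6a1 (0.0756) and in 1 for Col15a1 (0.208). The 1 collagen lower in large intestine was Col6a4, a collagen VI chain, with medians of 5.02 FPKM in small and 0.441 FPKM in large intestine and a log2 fold change of -1.86 ± 0.17. The highest Col6a4 value of the large intestine, 2.74 FPKM, fell in the 2 h library, the one with the most enterocyte transcripts.

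Between the lymphoid organs, 12 of 23 collagens tested were higher in spleen and 9 higher in thymus, where 32.8% of all genes were higher in spleen and 33.7% in thymus. Here too the filter used the mean over both organs. Col5a1, Col7a1, Col8a2, Col16a1 and Col23a1 had means below 1 FPKM in thymus, and Col4a5, Col15a1 and Col20a1 in spleen. The widest gap was that of Col14a1, a collagen bound to fibrils, with a median of 22.5 FPKM in spleen against 1.49 FPKM in thymus (log2 3.28 ± 0.13). Type I collagen was also higher in spleen, with medians of 27.4 and 5.39 FPKM for Col1a2 (log2 2.05 ± 0.20) and 7.20 and 2.30 FPKM for Col1a1 (log2 1.29 ± 0.21). The thymus had more of the collagen VI chains Col6a1 (19.2 against 5.80 FPKM, log2 fold change of spleen over thymus -1.55 ± 0.13) and Col6a2 (12.8 against 3.91 FPKM, -1.53 ± 0.14). It also had more Col15a1 (5.14 against 0.677 FPKM, -1.86 ± 0.11) and more Col12a1 (8.91 against 1.64 FPKM, -1.44 ± 0.14). Col4a5 was called higher in thymus by log2 0.23, a direction that turned to 0.037 higher in spleen under quantile normalization. Col18a1, Col20a1 and Col11a2 were also called higher in thymus. Of 22 alternatives, their calls were lost in 6, 3 and 2 (adjusted p up to 0.163, 0.788 and 0.689).

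Within the first 8 h, type IV collagen rose in both lymphoid organs. Spleen Col4a1 was 16.4 FPKM at 0 h, then 26.6, 22.4, 25.2, 30.6 and 55.4 FPKM from 1 to 5 h, 64.8, 72.1 and 58.7 FPKM from 6 to 8 h and 50.2 FPKM at 24 h. Thymus Col4a1 was 8.20 FPKM at 0 h, then 6.58, 7.68, 12.3, 19.4 and 29.8 FPKM, then 50.4, 54.9 and 65.0 FPKM, and 18.8 FPKM at 24 h. In both organs all 3 libraries at 6 to 8 h lay above all 5 at 1 to 5 h. The means at 6 to 8 h were 65.2 ± 6.67 FPKM in spleen and 56.8 ± 7.45 FPKM in thymus (SD, n = 3). The log2 fold change of 6 to 8 h over 1 to 5 h was 1.07 ± 0.23 in spleen (limma, adjusted p = 0.00172) and 2.03 ± 0.23 in thymus (adjusted p = 9.3e-07). Against the single 0 h library, the mean of 1 to 8 h was higher by log2 1.25 ± 0.34 in spleen (adjusted p = 0.0219) and 1.37 ± 0.34 in thymus (adjusted p = 0.00884). Without the 7 h library the spleen value was 1.13 with an adjusted p of 0.0501, and in a fit of spleen alone its adjusted p was 0.0679. In these bulk samples, more cells of a type and more RNA per cell cannot be told apart.

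Col4a2, the partner chain, had the same course. In spleen it was 13.3 FPKM at 0 h, 16.3 to 39.8 FPKM from 1 to 5 h, 48.2, 54.3 and 49.5 FPKM from 6 to 8 h and 32.7 FPKM at 24 h. In thymus it was 5.15 FPKM at 0 h, 3.86 to 18.6 FPKM from 1 to 5 h, 33.1, 33.9 and 35.6 FPKM from 6 to 8 h and 7.85 FPKM at 24 h. The groups did not overlap, and 6 to 8 h exceeded 1 to 5 h by log2 1.15 ± 0.27 in spleen (adjusted p = 0.00349) and 1.91 ± 0.28 in thymus (adjusted p = 1.36e-05). Against 0 h, thymus Col4a2 at 1 to 8 h was higher by log2 1.32 ± 0.40 (adjusted p = 0.0312), a call lost without the 6, 7 or 8 h library (adjusted p 0.0788 to 0.087) and in a fit of thymus alone (0.0544). Spleen Col4a2 was not called at 1 to 8 h against 0 h. Thymus Col4a5, a chain of another type IV network, rose from 0.554 to 1.22 FPKM at 1 to 5 h to 1.61 to 1.74 FPKM at 6 to 8 h (log2 0.52 ± 0.12, adjusted p = 0.00224). Col4a5 and Col4a6 did not pass the filter in spleen, nor Col4a6 in thymus.

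**Figure D2:**
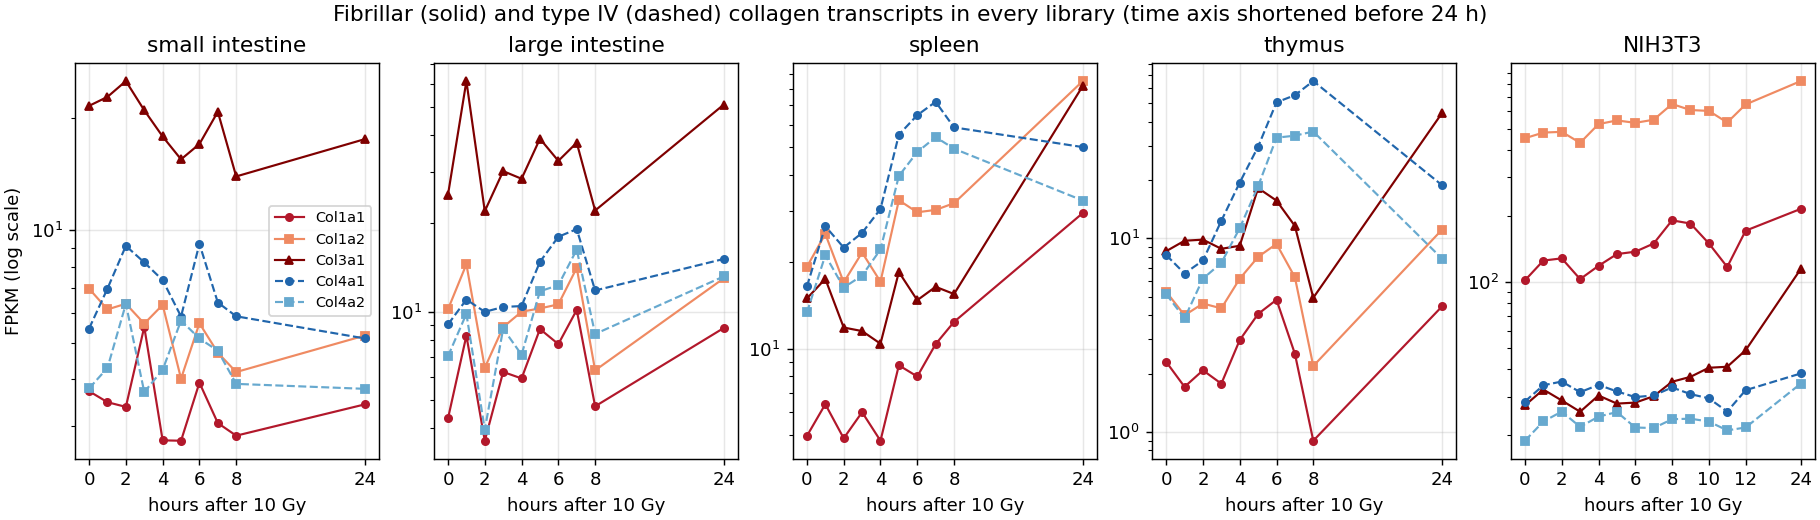
FPKM on a log scale against hours after 10 Gy for Col1a1, Col1a2, Col3a1 (solid) and Col4a1, Col4a2 (dashed) in each system, 1 library per point. The dashed lines climb from 4 to 7 h in spleen and from 2 to 8 h in thymus, and in both organs the solid lines stand at their highest or, for thymus Col1a1, near it at 24 h.

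Col18a1 and Col12a1 rose in the same comparison. Col18a1 (chr10:77052178-77166530) encodes the basement membrane multiplexin whose end fragment is endostatin. It was 2.94 to 8.10 FPKM at 1 to 5 h and 10.2, 11.2 and 10.5 FPKM at 6 to 8 h in spleen (log2 1.07 ± 0.25, adjusted p = 0.00288). In thymus it was 2.59 to 11.2 FPKM, then 16.1, 20.6 and 21.5 FPKM (log2 1.63 ± 0.25, adjusted p = 2.99e-05). Col12a1 (chr9:79598987-79721141) encodes a collagen that decorates type I fibrils. In thymus it was 1.498 FPKM at 0 h, 0.895, 1.66, 5.44, 8.52 and 9.31 FPKM from 1 to 5 h, 14.7, 11.8 and 11.97 FPKM from 6 to 8 h and 2.96 FPKM at 24 h. The later libraries all lay above the earlier ones (log2 1.46 ± 0.20, adjusted p = 6.7e-06), and 1 to 8 h exceeded 0 h by log2 1.55 ± 0.29 (adjusted p = 0.000913). Spleen Col12a1 went from 0.650 to 2.55 FPKM at 1 to 5 h to 2.11, 3.06 and 2.94 FPKM at 6 to 8 h, with overlap (log2 0.72 ± 0.20, adjusted p = 0.00956). With other windows for the earlier hours that adjusted p was 0.0584, and in a fit of spleen alone 0.0504.

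Among all collagens tested, 5 of 20 rose and none fell from 1 to 5 h to 6 to 8 h in spleen, where 15.6% of all genes rose and 12.3% fell. In thymus 10 of 19 rose and none fell, where 18.7% of all genes rose and 13.5% fell. By class, both type IV genes tested rose in spleen (median log2 fold change 1.11) and all 3 in thymus (median 1.91). The fibrillar class had 0 of 7 called in spleen (median 0.18, 1 at an unadjusted p below 0.05) and 1 of 6 in thymus (median -0.01). The medians over all genes tested were 0.02 in spleen and -0.002 in thymus. The fibrillar gene that rose in thymus was Col5a2, a chain of the type V collagen that seeds type I fibrils (log2 0.74 ± 0.21, adjusted p = 0.00859). In collagen VI, 4 of 5 chains rose in thymus, led by Col6a4 (log2 0.84 ± 0.24, adjusted p = 0.0100) and Col6a1 (0.70 ± 0.18, adjusted p = 0.00516). The calls of Col6a2 (without the 1 or 6 h library), Col6a3 (without any of 7 libraries, and also under quantile normalization) and Col6a4 (without 8 h, adjusted p 0.094) rest on single libraries. In spleen Col6a4 alone of the collagen VI chains was called (0.70 ± 0.24, adjusted p = 0.0326), and leaving out any of 5 single libraries, pseudocount 0.1 (0.0898) or quantile normalization (0.0748) ends that call.

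Against 0 h, 2 of 20 collagens were higher over 1 to 8 h in spleen, 3 of 19 in thymus and 2 of 18 in NIH3T3, and none was lower. The shares of all genes called higher were 5.03% in spleen, 8.29% in thymus and 2.76% in NIH3T3, and those called lower 3.66%, 3.93% and 1.7%. The second spleen gene was Col7a1, which encodes anchoring fibrils, at 0.809 FPKM at 0 h and 0.954 to 3.75 FPKM from 1 to 8 h (log2 0.88 ± 0.22, adjusted p = 0.0111). In a fit of spleen alone its adjusted p was 0.155, and with pseudocount 0.1 it was 0.0894. The NIH3T3 genes were Col12a1, from 9.23 to between 15.2 and 20.0 FPKM (log2 0.83 ± 0.12, adjusted p = 0.00475), and Col6a3, from 13.0 to between 16.8 and 22.4 FPKM (log2 0.58 ± 0.13, adjusted p = 0.0294). In both, every library at 1 to 8 h lay above the 0 h library. With no filter on low values the adjusted p of Col6a3 was 0.0550.

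The rise of type IV within the first 8 h was compared between organs. The change from 1 to 5 h to 6 to 8 h in spleen and thymus exceeded that in the intestines for 6 of 21 collagens and fell short for none, where 16.2% of all genes exceeded it and 12.1% fell short. The excess was log2 1.35 ± 0.23 for Col4a1 (adjusted p = 0.000173), 1.28 ± 0.28 for Col4a2 (adjusted p = 0.00127) and 1.22 ± 0.25 for Col18a1 (adjusted p = 0.000859). For Col12a1, Col6a4 and Col6a1 it was 0.95 ± 0.20, 1.02 ± 0.24 and 0.56 ± 0.18. For Col3a1 it was 0.23 ± 0.30 (adjusted p = 0.61). This contrast averages the 2 intestines and was added after the data had been seen. Large intestine Col4a1 was 9.05 FPKM at 0 h, 9.99 to 14.8 FPKM from 1 to 5 h and 18.0, 19.1 and 11.8 FPKM from 6 to 8 h. At 24 h it was 15.1 FPKM. The type IV sum of large intestine was 1.84, 2.11 and 1.22 times its 0 h value at 6, 7 and 8 h, and 1.73 times at 24 h. No collagen was called over time in that organ. The same difference taken over 1 to 8 h against 0 h was called for 1 of 21 collagens, Col12a1 (1.10 ± 0.29), where 2.38% of all genes were higher and 1.21% lower.

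In spleen the summed fibrillar collagens and the summed collagen VI chains were highest in the 24 h library, at 222 and 39.2 FPKM. Spleen Col3a1 was 14.9 FPKM at 0 h, between 10.4 and 18.5 FPKM in all 8 libraries from 1 to 8 h, and 81.8 FPKM at 24 h. Spleen Col1a2 was 19.3 FPKM at 0 h, 17.0 to 32.8 FPKM from 1 to 8 h and 85.1 FPKM at 24 h. Spleen Col1a1 (chr11:94936224-94953042) was 4.97 FPKM at 0 h, 4.78 to 12.4 FPKM from 1 to 8 h and 29.6 FPKM at 24 h. In each, the 24 h library lay far above all 9 earlier ones. The log2 fold changes of 24 h over 0 h were 2.38 ± 0.59 for Col3a1 (limma, adjusted p = 0.00628), 2.09 ± 0.57 for Col1a2 (adjusted p = 0.0128) and 2.36 ± 0.58 for Col1a1 (adjusted p = 0.00641). Both hours are single libraries that were assumed to vary like libraries within windows, so the difference has no replicate check of its own.

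Further genes of fibre-forming and filament-forming collagens shared that course in spleen. Col5a2 was 2.79 FPKM at 0 h, 3.36 to 5.75 FPKM from 1 to 8 h and 16.8 FPKM at 24 h (log2 2.23 ± 0.40, adjusted p = 0.000449). Col6a1 was 3.81 FPKM, 3.81 to 7.11 FPKM and 19.2 FPKM at the same times (2.07 ± 0.35, adjusted p = 0.000273), and Col6a2 was 2.77, 2.21 to 4.22 and 11.2 FPKM (1.70 ± 0.40, adjusted p = 0.00435). Col14a1 went from 22.0 FPKM, with 17.0 to 28.2 FPKM at 1 to 8 h, to 46.3 FPKM (1.04 ± 0.35, adjusted p = 0.0398). Col16a1 (1.499 ± 0.52, adjusted p = 0.0444), Col7a1 (1.15 ± 0.29, adjusted p = 0.00666) and Col4a1 (1.55 ± 0.45, adjusted p = 0.0174) were the remaining calls. With pseudocount 0.1 the adjusted p was 0.144 for Col14a1, 0.102 for Col16a1 and 0.0601 for Col7a1, and in a fit of spleen alone 0.0675 for Col14a1 and 0.103 for Col7a1. That of Col16a1 was also above the threshold with no filter on low values (0.0505), under quantile normalization (0.0645) and without the 7 h library (0.0515). In all, 10 of 20 collagens were higher at 24 h than at 0 h and none lower, where 13.2% of all genes were higher and 7.51% lower. The median log2 fold change was 1.19 over the 20 collagens, 2.09 over the 7 fibrillar and 1.39 over the 2 type IV genes, and 0.09 over all genes.

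From 6 to 8 h to 24 h, fibrillar genes and chains of collagen VI were among those that rose in spleen. Col3a1 rose by log2 2.33 ± 0.48 (adjusted p = 0.00296), Col5a2 by 1.59 ± 0.33 (adjusted p = 0.00296) and Col6a1 by 1.46 ± 0.29 (adjusted p = 0.00229). In all 9 of 20 collagens rose, where 6.24% of all genes did, and the number was 4 without the 7 h and 5 without the 8 h library. The calls of Col1a1 (1.46 ± 0.48, adjusted p = 0.0497) and Col1a2 (1.44 ± 0.47, adjusted p = 0.0498) were lost without single libraries (adjusted p up to 0.117 and 0.0934), with pseudocount 0.1 (0.134 and 0.105) and with no filter on low values (both 0.0579). The median of the 2 type IV genes was -0.49 with neither called, and the classes were not tested against each other. No collagen fell in spleen, where 4.35% of all genes did.

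In thymus, genes of the fibrillar, type IV and other classes were higher at 24 h than at 0 h, and 2 genes were lower. Col3a1 was 8.58 FPKM at 0 h, 4.93 to 18.2 FPKM from 1 to 8 h and 44.4 FPKM at 24 h (log2 2.24 ± 0.59 over 0 h, adjusted p = 0.00347). Col5a2 was 2.96 FPKM, 2.21 to 7.60 FPKM and 15.1 FPKM (2.02 ± 0.40, adjusted p = 0.000293), and Col4a5 was 0.636, 0.554 to 1.74 and 3.99 FPKM (1.61 ± 0.24, adjusted p = 9.42e-06). Type I collagen did not pass in thymus, with Col1a1 at 2.30 FPKM at 0 h and 4.44 FPKM at 24 h, and Col1a2 at 5.29 and 11.1 FPKM. Col18a1 (1.32 ± 0.49, adjusted p = 0.0304), Col4a1 (1.11 ± 0.45, adjusted p = 0.0499) and Col6a1 (0.98 ± 0.36, adjusted p = 0.0278) were also higher. Col15a1 fell from 6.06 to 2.72 FPKM (-0.92 ± 0.32, adjusted p = 0.0225) and Col27a1 from 2.72 to 1.31 FPKM (-0.69 ± 0.28, adjusted p = 0.0496). These are 6 higher and 2 lower of 19 collagens, where 26.4% of all genes were higher and 18.6% lower. The number of higher collagens thus lies near the share of all genes. Of 15 alternatives, the call of Col4a1 held in 3 and that of Col27a1 in 6. The call of Col27a1 was lost without each of 6 libraries (adjusted p 0.0519 to 0.0559), and that of Col4a1 without each of 6 (0.0523 to 0.0567). In a fit of thymus alone the adjusted p was 0.0834 for Col4a1, 0.0512 for Col18a1 and Col15a1 and 0.0504 for Col27a1. With pseudocount 0.1 it was 0.0518 for Col4a1, 0.0977 for Col15a1 and 0.129 for Col27a1.

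The enterocyte transcripts in the 24 h thymus library amounted to a median of 10.1% of the 24 h small intestine library over 7 markers. Less that share of the small intestine values, the fold changes over 0 h were 2.19 for Col3a1 (adjusted p = 0.00435), 2.01 for Col5a2, 1.59 for Col4a5 and 1.07 for Col4a1, whose adjusted p was then 0.0601. The subtracted amount was 3.995% of the Col3a1 value and 2.76% of the Col4a1 value. It was 37.6% for Col6a4, for which no 24 h call was made.

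From 6 to 8 h to 24 h, thymus Col4a1 fell from a mean of 56.8 ± 7.45 FPKM (SD, n = 3) to 18.8 FPKM (log2 -1.54 ± 0.37, adjusted p = 0.00244). Col4a2 fell by log2 1.99 ± 0.44 (adjusted p = 0.00108) and Col12a1 by 1.80 ± 0.31 (adjusted p = 0.000112), while Col3a1 rose by 2.08 ± 0.48 (adjusted p = 0.00173) and Col4a5 by 0.91 ± 0.19 (adjusted p = 0.000918). In total 3 of 19 rose and 6 fell, where 19% of all genes rose and 16.3% fell. The number that rose lies near the share of all genes. Within type IV, Col4a1 and Col4a2 thus fell as Col4a5 rose.

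In NIH3T3 collagens of all 3 classes were higher at 24 h, and none was called between 1 to 5 h and 6 to 8 h. Col3a1 was 27.3 FPKM at 0 h, 25.6 to 35.0 FPKM from 1 to 8 h, 36.9, 40.6, 41.0 and 48.8 FPKM from 9 to 12 h and 115 FPKM at 24 h (log2 2.03 ± 0.19 over 0 h, adjusted p = 7.6e-05). Col1a2 was 452 FPKM at 0 h, 431 to 648 FPKM from 1 to 8 h, 534 to 645 FPKM from 9 to 12 h and 825 FPKM at 24 h (0.86 ± 0.18, adjusted p = 0.0093). Col1a1 stood at 101.7 FPKM at 0 h, 103 to 191 FPKM and 117 to 185 FPKM in those windows, and 215 FPKM at 24 h (1.08 ± 0.27, adjusted p = 0.0218, but 0.0717 with no filter on low values). All 3 were highest at 24 h. Col12a1 (1.53 ± 0.16), Col11a1 (1.55 ± 0.20), Col6a3 (1.29 ± 0.17), Col6a2 (1.13 ± 0.19), Col6a1 (1.08 ± 0.15) and Col5a1 (0.95 ± 0.22) were also higher at 24 h than at 0 h. So were the type IV genes Col4a2, from 18.9 to 34.4 FPKM (0.83 ± 0.14, adjusted p = 0.00357), and Col4a5, from 20.1 to 34.3 FPKM (0.74 ± 0.13, adjusted p = 0.00409). In total 11 of 18 collagens were higher and none lower, where 5.64% of all genes were higher and 5.4% lower. The medians were log2 0.85 over the collagens and 0.02 over all genes.

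Against 6 to 8 h, 8 of 18 collagens were higher at 24 h in NIH3T3, where 1.43% of all genes were higher and 0.607% lower, with Col3a1 first (log2 1.85 ± 0.15, adjusted p = 3.7e-05). Without the 6 h library the number was 4, and without the 7 h library 5. From 1 to 5 h to 6 to 8 h no collagen was called in limma, where 0.857% of all genes were called higher and 1.44% lower. At an unadjusted p below 0.05 there were 4 collagens, a count that those adjusted shares cannot be set against. Col4a1 changed by log2 -0.09 ± 0.08 and Col4a2 by -0.10 ± 0.07 over those hours. By 9 to 12 h, 6 of 18 were higher than at 1 to 5 h, where 7.04% of all genes were and 6.52% were lower, led by Col3a1 (0.51 ± 0.09, adjusted p = 0.00319). That number was 3 without the 1, 2 or 10 h library.

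In small intestine no collagen passed in any of the 4 time comparisons, and none had an unadjusted p below 0.05. The shares of all genes called were 0.316% for 1 to 8 h over 0 h, 0.518% for 6 to 8 h over 1 to 5 h, 0.184% for 24 h over 0 h and 0.123% for 24 h over 6 to 8 h. Col3a1 was 21.5 FPKM at 0 h, 13.9 to 25.1 FPKM from 1 to 8 h and 17.5 FPKM at 24 h, and Col4a1 5.47, 5.89 to 9.21 and 5.14 FPKM. The 24 h values thus lay among or below the early ones. In large intestine no collagen passed either, where 1.48%, 0.498%, 0.253% and 0.127% of all genes did. At an unadjusted p below 0.05 there were 3, 4, 5 and 3 of 20 collagens. The shares of all genes are for the adjusted threshold, so these unadjusted counts cannot be set against them. Of the 20 tested, 19 had a positive log2 fold change of 24 h over 0 h, with a median of 0.71 against 0.002 over all genes. Col3a1 was 25.1 FPKM at 0 h and 50.9 FPKM at 24 h, with 61.2 FPKM at 1 h, the library lowest in enterocyte transcripts. Col6a1 was 11.98 and 26.8 FPKM (1.10 ± 0.36, adjusted p = 0.309). Large intestine Col8a1 ranged from 1.93 FPKM at 2 h to 18.8 FPKM at 7 h, with 2.57 FPKM at 0 h. Mesothelial markers in large intestine summed to 2.82 FPKM at 0 h and 16.6 FPKM at 24 h. Smooth muscle markers there summed to 2058 FPKM at 0 h, 2298 to 4928 FPKM at 6 to 8 h and 3192 FPKM at 24 h. In small intestine the smooth muscle sum was 617 FPKM at 0 h, 396 to 722 FPKM at 6 to 8 h and 310 FPKM at 24 h. The part of these markers in the collagen values was not tested.

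The remaining members are given by their range over the libraries of a system. Col5a1, the other type V chain, ranged from 0.805 to 1.87 FPKM in small intestine, 1.18 to 4.11 FPKM in large intestine, 1.49 to 3.82 FPKM in spleen and 17.5 to 36.2 FPKM in NIH3T3. Col6a3, the large chain of collagen VI, ranged from 1.64 to 3.63 FPKM in small intestine, 1.74 to 5.80 FPKM in large intestine and 2.102 to 5.19 FPKM in spleen. Col14a1 stayed between 1.03 and 4.13 FPKM in both intestines, and Col18a1 between 2.89 and 8.06 FPKM. Col16a1 ranged from 44.2 to 54.9 FPKM in NIH3T3 and Col8a1 from 23.9 to 31.2 FPKM, with no time comparison called for either. In spleen Col8a2, partner chain of Col8a1, ranged from 2.16 to 6.78 FPKM and the transmembrane collagen Col23a1 from 1.12 to 3.25 FPKM. Both were highest at 24 h and called against 6 to 8 h (log2 0.95 ± 0.28, adjusted p = 0.0343, and 0.74 ± 0.23, adjusted p = 0.0434). Without the 7 h spleen library those adjusted p were 0.107 and 0.0967, with pseudocount 0.1 0.206 and 0.167, and in a fit of spleen alone 0.165 and 0.0993. In thymus Col11a2, a minor fibrillar chain best known from cartilage, fell from 2.01 to 2.15 FPKM at 6 to 8 h to 1.24 FPKM at 24 h (-0.46 ± 0.16, adjusted p = 0.0309), a call lost without the 6 or 7 h library (0.0541 and 0.0539), with pseudocount 0.1 (0.159) and with other windows (0.0510). Col20a1 (0.504 to 2.18 FPKM) and Col6a5 (0.663 to 1.74 FPKM) passed the filter in thymus alone, and Col28a1 in large intestine (0.644 to 1.83 FPKM) and NIH3T3 (0.944 to 2.52 FPKM).

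The 24 h change was also compared between organs. In spleen and thymus together it fell short of that in the intestines for no collagen, where 11.2% of all genes fell short. It exceeded that in the intestines for 4 of 21 collagens, near the 17.6% of all genes that exceeded it. These were Col5a2 (log2 1.67 ± 0.40, adjusted p = 0.00369), Col3a1 (1.96 ± 0.59, adjusted p = 0.016), Col6a1 (1.12 ± 0.36, adjusted p = 0.0213) and Col1a2 (1.53 ± 0.58, adjusted p = 0.0497). In 27 alternatives the Col1a2 value missed the threshold, with adjusted p from 0.0506 to 0.0774. For spleen alone, which leaves out the thymus library with enterocyte transcripts, Col5a2 (1.78 ± 0.49), Col6a1 (1.66 ± 0.44) and Col6a2 (1.63 ± 0.49) passed of 21, where 5.19% of all genes were higher and 2.82% lower. With pseudocount 0.1 that Col5a2 value had an adjusted p of 0.0596. Spleen Col3a1 exceeded the intestines by 2.02 ± 0.72 with an adjusted p of 0.086. The 2 contrasts share the intestinal and spleen libraries and were added after the data had been seen.

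**Figure D3:**
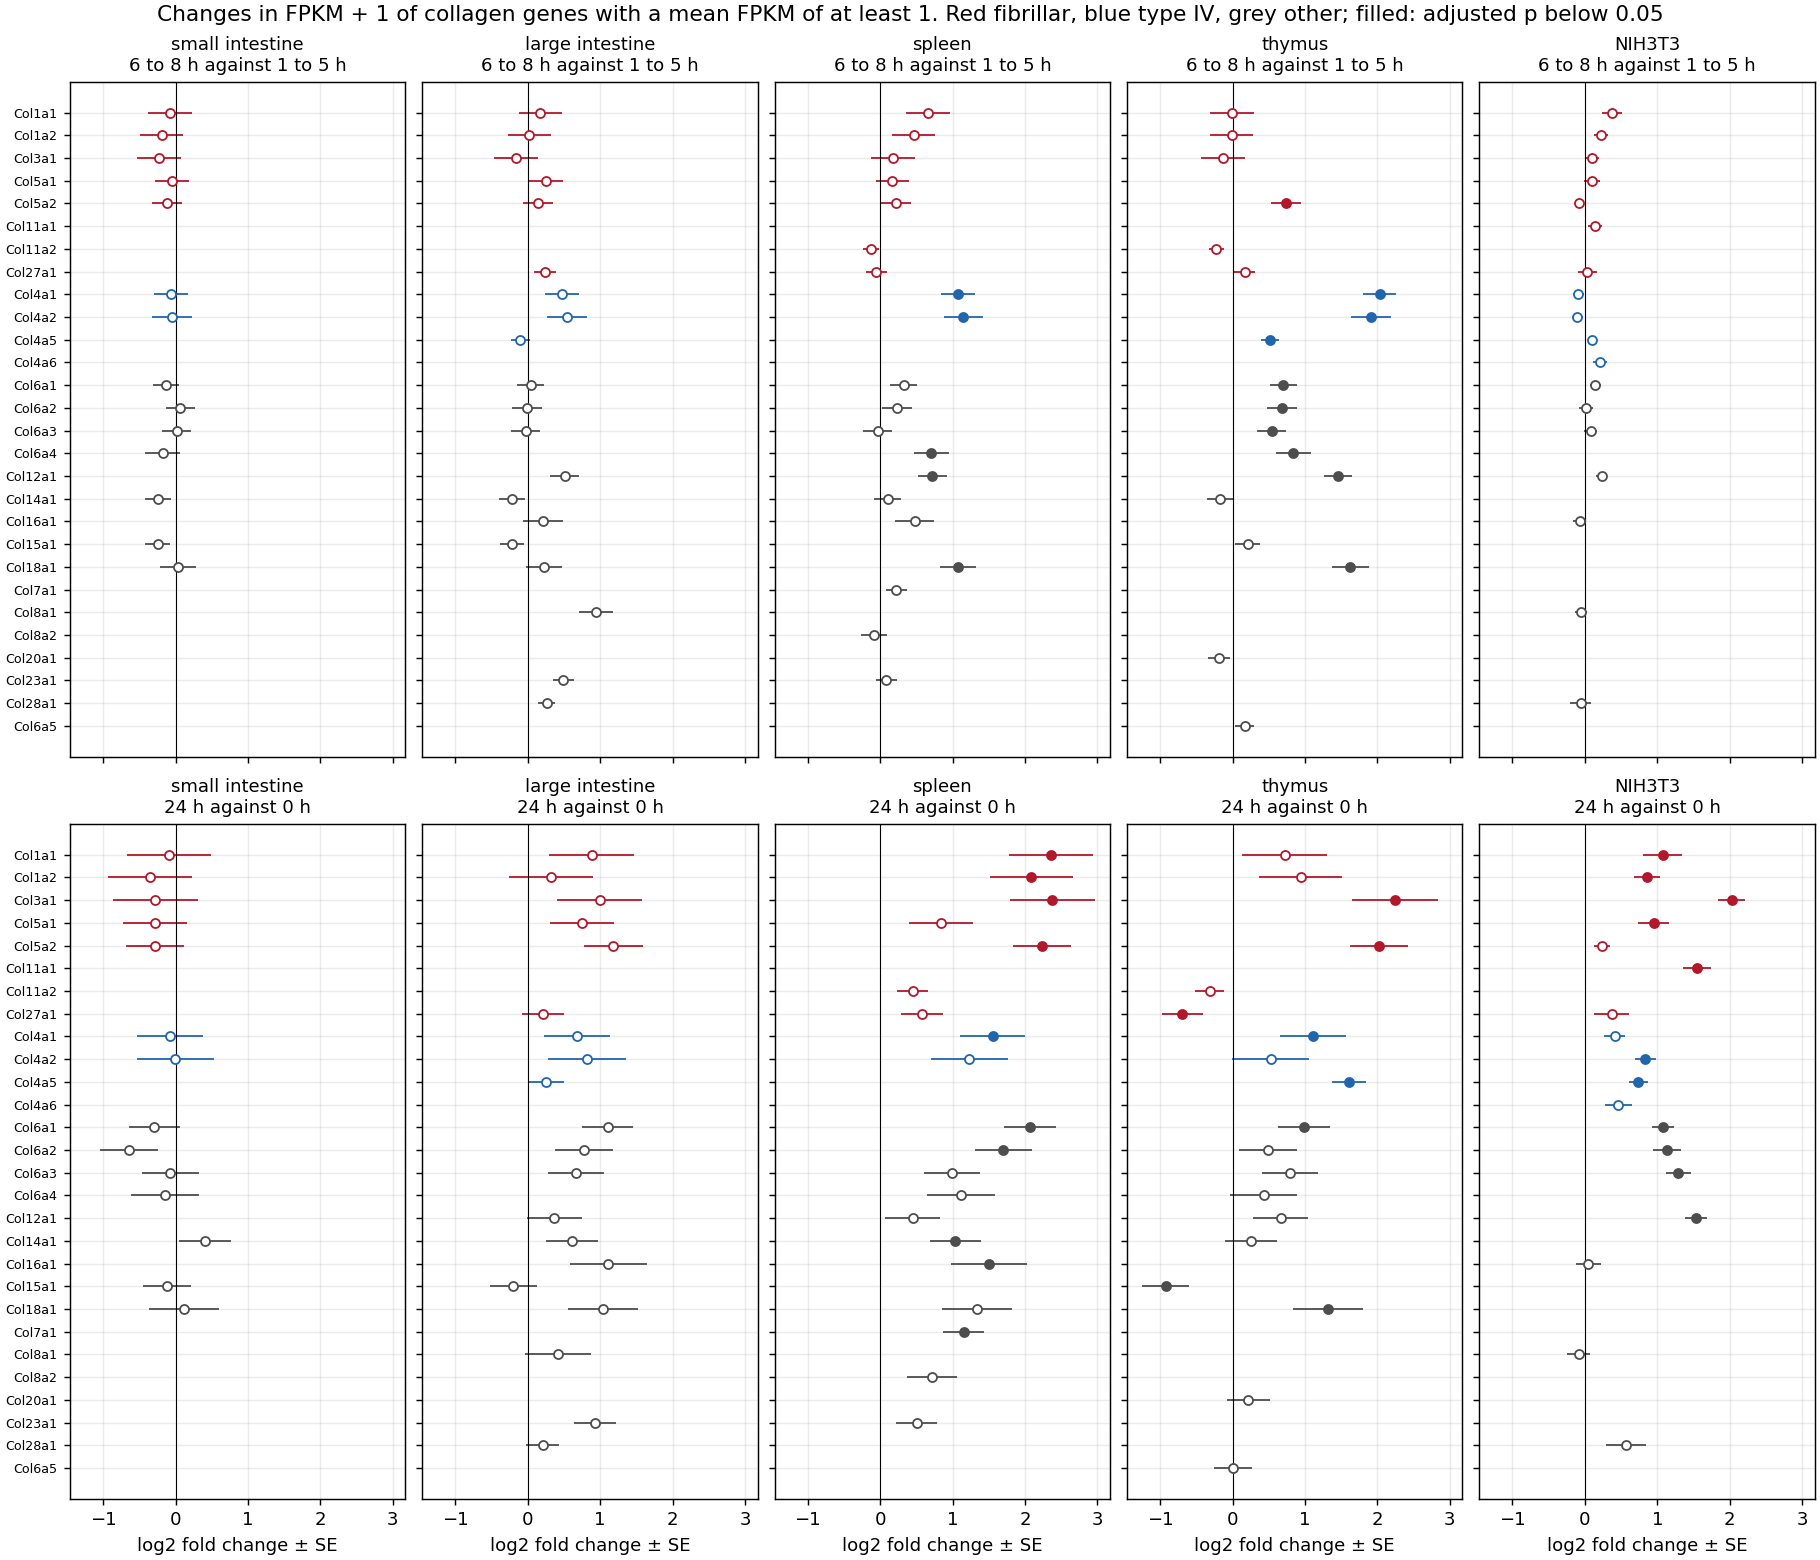
Log2 fold change of FPKM + 1 with its standard error (limma) for each collagen gene with a mean of at least 1 FPKM, in the 5 systems. Upper panels show 6 to 8 h over 1 to 5 h and lower panels 24 h over 0 h, and filled points have an adjusted p below 0.05. In the upper panels of spleen and thymus every type IV point is filled and, of the fibrillar points, Col5a2 in thymus alone. In the lower panels 4 of 7 fibrillar points are filled in spleen and 3 of 6 in thymus, 1 of them to the left of 0.

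Summed over each class, the order of fibrillar and type IV collagen reversed and then returned in both lymphoid organs. In spleen the fibrillar sum was 46.4 FPKM and the type IV sum 30.5 FPKM at 0 h. At 6 to 8 h they were 63.4 to 71.7 FPKM and 109 to 127 FPKM, and at 24 h 222 and 84.6 FPKM. The ratio of fibrillar to type IV was 1.52 at 0 h, 0.532 to 0.657 at 6 to 8 h and 2.63 at 24 h. In thymus this ratio was 1.73 at 0 h, 0.218 to 0.531 at 6 to 8 h and 2.53 at 24 h, from a type IV sum of 14.1 FPKM at 0 h, 102 FPKM at 8 h and 31.0 FPKM at 24 h. The 8 h thymus library also held the lowest Col1a1 (0.898 FPKM), Col1a2 (2.19 FPKM) and Col3a1 (4.93 FPKM) of that organ. It gave the lowest ratio, 0.218, and was the shallowest thymus library by the steps between low values. The part of depth in its values was not tested. At 7 h the type IV sum in thymus was 90.7 FPKM and the ratio 0.374.

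In no library of the other systems did type IV exceed the fibrillar sum. The ratio was 2.07 to 3.67 in small intestine, 1.85 to 4.12 in large intestine and 7.35 to 10.4 in NIH3T3. Fibrillar collagens held 37.8% of all collagen FPKM in spleen at 0 h, 25.4% to 29.3% at 6 to 8 h and 52.0% at 24 h. In thymus the shares were 28.3%, 10.5% to 19.8% and 41.7%. In NIH3T3 they stayed between 67.7% and 72.6% throughout. The sums of the other collagens went from 46.0 FPKM at 0 h to 120 FPKM at 24 h in spleen and from 47.5 to 78.5 FPKM in thymus. These sums are descriptions, with no test.

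**Figure D4:**
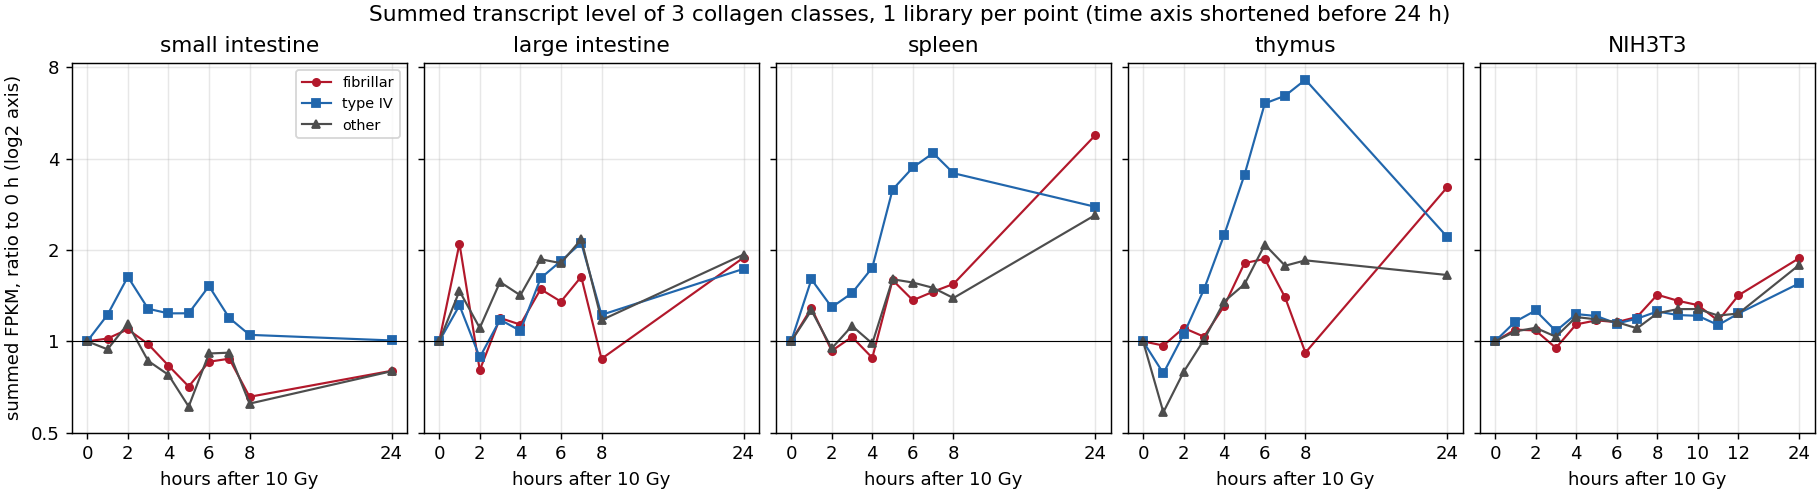
Summed FPKM of fibrillar (8 genes), type IV (4 genes) and other (16 genes) collagens as a ratio to the 0 h library, on a log2 axis, against hours after 10 Gy, 1 library per point. The type IV sum peaks at 4.17 times 0 h in spleen (7 h) and 7.27 times in thymus (8 h), and the fibrillar sum reaches 4.78 and 3.22 times at 24 h.

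Lists of other genes of the collagen pathway were counted in the same comparisons. From 1 to 5 h to 6 to 8 h, 18.7% of all genes rose in thymus and 15.6% in spleen. From 1 to 5 h to 6 to 8 h in thymus, 9 of 12 other basement membrane genes rose, among them the laminin chain Lama3 (log2 2.08), and in spleen 5 of 10 did, among them the linker Nid1 (1.04). Of the genes that process collagen, 10 of 26 rose in thymus, including the cross-linking oxidase Lox (1.87) and the collagen chaperone Serpinh1 (1.13), and 9 of 25 in spleen. Of the genes for collagen breakdown, 9 of 14 rose in thymus, among them the inhibitor Timp1 (3.61), and 8 of 13 in spleen, among them the proteases Mmp3 (3.87) and Mmp8 (3.84). Collagen receptors rose for 4 of 5 genes in thymus, among them the integrin chain Itgb1 (1.53), and 1 of 6 in spleen. For the TGF-beta pathway, an inducer of fibrillar collagen in fibroblasts, 10 of 12 genes rose in thymus, while in spleen 2 of 11 rose and 1 fell. The spleen counts of receptors and of the TGF-beta pathway lie near the share of all genes that rose. None fell in the other lists named here.

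At 24 h against 0 h, 13.2% of all genes were higher in spleen, 26.4% in thymus and 5.64% in NIH3T3. In that comparison 14 of 25 processing genes were higher in spleen, among them the lysyl hydroxylases Plod1 (1.54) and Plod2 (1.79), and 13 of 26 in thymus, with Serpinh1 at 2.18. Breakdown genes were higher for 10 of 13 in spleen, among them the gelatinase Mmp2 (3.50) and Timp1 (6.17), and 8 of 14 in thymus, with Timp1 at 6.02. Of the other basement membrane genes 8 of 10 were higher in spleen and 7 of 12 in thymus, and of the other interstitial matrix genes 6 of 14 and 9 of 15. In NIH3T3, 3 of 24 processing genes were higher and 1 lower, 9 of 10 other basement membrane genes higher and 7 of 12 other interstitial matrix genes higher. TGF-beta pathway genes in NIH3T3 gave 2 higher and 2 lower of 12.

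Marker sums of other cell types also differed between these hours. In spleen the B cell marker sum was 2206 FPKM at 0 h, 317 to 334 FPKM at 6 to 8 h and 289 FPKM at 24 h, and the fibroblast marker sum without Thy1, which T cells also express, was 40.6, 85.8 to 106 and 121 FPKM. Spleen endothelial markers summed to 197 FPKM, then 234 to 251 FPKM, then 389 FPKM, and 6 of 10 rose from 1 to 5 h to 6 to 8 h, where 15.6% of all genes rose. Spleen smooth muscle markers summed to 190 FPKM at 0 h, 347 to 432 FPKM at 6 to 8 h and 389 FPKM at 24 h. The adipocyte sum in spleen was 20.9, 65.8 to 80.5 and 54.7 FPKM at these times, and the mesothelial sum 10.5, 13.6 to 18.8 and 25.5 FPKM. In thymus the T cell marker sum was 2737 FPKM at 0 h, 1151 to 1413 FPKM at 6 to 8 h and 305 FPKM at 24 h. Thymus smooth muscle markers summed to 44.9 FPKM at 0 h, 314 to 792 FPKM at 6 to 8 h and 216 FPKM at 24 h, and 6 of 9 rose from 1 to 5 h to 6 to 8 h, among them the actin-binding Tagln (2.70) and the actin Acta2 (2.09). Keratinocyte markers, several of which thymic epithelium also expresses, summed to 163, 271 to 512 and 449 FPKM in thymus at these times, and 4 of 5 rose. Thymus endothelial markers summed to 53.3, 76.3 to 95.2 and 53.1 FPKM, and 5 of 10 rose. The share of all genes that rose in thymus was 18.7%. The thymus fibroblast sum without Thy1 was 42.8, 53.0 to 94.6 and 86.4 FPKM. Adipocyte markers in thymus summed to 516 FPKM at 0 h, 1459 to 2181.6 FPKM at 1 to 5 h, 732 to 2435 FPKM at 6 to 8 h and 2125 FPKM at 24 h. Mesothelial markers in thymus summed to 12.2, 11.7 to 33.0, 10.1 to 28.5 and 23.1 FPKM at those times. FPKM is a share of each library, so a loss of lymphocyte transcripts raises the values of all others. The part of these changes in the collagen values was not tested. In NIH3T3 endothelial markers summed to at most 1.11 FPKM with every gene under 1 FPKM, and the fibroblast sum without Thy1 was 505 FPKM at 0 h and 721 FPKM at 24 h.

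**Figure D5:**
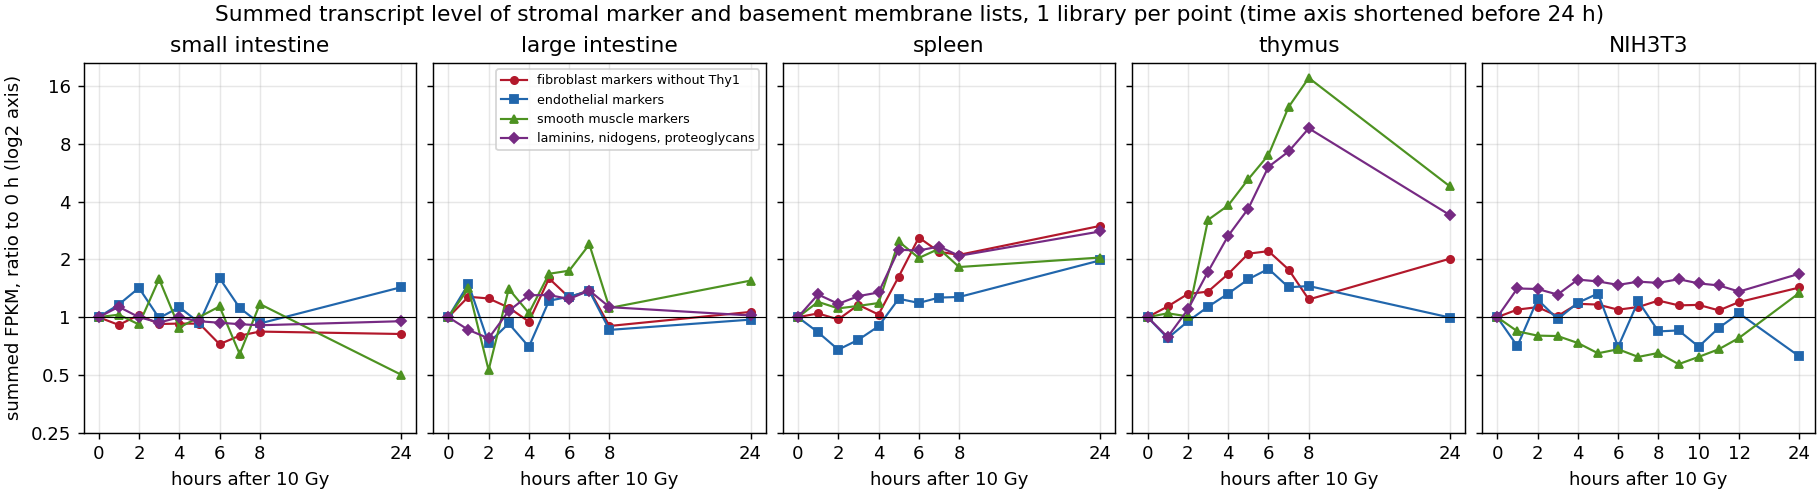
Summed FPKM of fibroblast markers without Thy1, endothelial markers, smooth muscle markers and other basement membrane genes as a ratio to the 0 h library, on a log2 axis, against hours after 10 Gy, 1 library per point. In thymus the smooth muscle sum rises from 44.9 FPKM at 0 h to 792 FPKM at 8 h, and in spleen the fibroblast sum reaches 121 FPKM at 24 h from 40.6 FPKM.

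The genes whose levels ran most like Col1a1 and Col4a1 were looked up over all 54 libraries, with log2(FPKM + 1) centred within each system and 13042 genes. Among genes that are no collagens, Loxl1 (r = 0.83), Ltbp3 (0.80), Mxra8 (0.80), Pcolce (0.79) and Zcchc24 (0.79) had the highest Pearson r with Col1a1. For Col4a1 they were Trim47 (0.93), Cald1 (0.92), Tead1 (0.91), Lmna (0.91) and Cdh3 (0.90). Within the family, Col1a1 ran most like Col1a2 (0.91), Col6a1 and Col3a1 (both 0.80), and Col4a1 most like Col4a2 (0.95), Col18a1 (0.91) and Col12a1 (0.85). The r between Col1a1 and Col4a1 was 0.38. Values of 1 library share its depth and cell composition, so these are descriptions with no test.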

How the data were processed

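RNA from 40 tissue and 14 NIH3T3 libraries was polyA selected, per the labels' protocols. The deposited values are FPKM for 13611 gene symbols, and the submitters' processing notes name TopHat2 2.1.0, Cufflinks 2.1.1 and mm10. No source used here gives how the genes were chosen. Whole reads could not be recovered: steps between low values agreed within 0.05 log2 for 8.25% to 25.3% of genes, so no counting error is given and relative depths are rough.

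The program limma 3.58.1 (R 4.3.3) was applied to log2(FPKM + 1), with 1 mean per system and window and a trended prior. Tissues were fitted together (20 residual degrees of freedom) and NIH3T3 separately (8). Genes with a mean of at least 1 FPKM in the system were tested, two-sided, with Benjamini-Hochberg adjustment over all of them and a threshold of 0.05. For the level comparisons that mean was taken over the pooled libraries of both organs. For differences of changes between organs it was taken over all 40 tissue libraries. A gene so tested could be below 1 FPKM in some of the organs compared. Fold changes of FPKM + 1 understate those of low genes, and values after ± are limma's SE unless named SD. Comparisons of 1 system share its 0 h or 24 h library. Tables and figures used Python 3.11.15, numpy 2.4.6, pandas 2.3.3 and matplotlib 3.10.9. The fit was tested on simulated data. For each gene, independent normal noise of the same spread was drawn for every library, also for the single 0 h and 24 h libraries. The simulation therefore cannot test whether those vary like libraries within windows. Changes were put only into genes with a mean of at least 2 FPKM in the system. For 24 h against 0 h, 29% of 2-fold and 88% of 4-fold changes put in were called in spleen. In NIH3T3 these were 35% and 89%. For 6 to 8 h against 1 to 5 h in thymus they were 89% and 100%. A 2-fold change at 24 h can thus be missed. False calls made up 1.68% of the calls in that spleen comparison, 6.06% in that of NIH3T3 and 6.03% in that of thymus. Values are given for 13 collagens picked by name (types I, III and V, Col4a1, Col4a2, Col6a1 to Col6a3, Col14a1, Col15a1, Col18a1), for every other member called in a comparison or highest in its subclass, and for up to 4 called genes of each other list, in order of adjusted p. Members, lists and tests were chosen with earlier results of these data known. Alternatives were pseudocount 0.1, no filter, quantile normalization, other windows, separate fits, the hour as a block (level comparisons), leaving out each library of a window with several, leaving out the spleen library of 6 h with that of large intestine at 2 h, and the 24 h thymus library less its share of small intestine transcripts. The single 0 h and 24 h libraries were not left out. Gene positions and promoters came from RefSeq GRCm38.p6, in which all 28 symbols matched.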

Additional observations from a re-analysis of the deposited data

Results flagged for a closer look

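The results below were picked out because the change in spleen and thymus differed from that in the intestines by a limma test of the difference itself. All are log2 differences with adjusted p over all genes tested, and all but the first use contrasts added after the data had been seen. Over 1 to 8 h against 0 h, Col12a1 exceeded the intestines by 1.10 (adjusted p = 0.0354), and its adjusted p was 0.0535 to 0.0646 without the 7 or 8 h spleen or the 6, 7 or 8 h thymus library, 0.0624 with pseudocount 0.1 and 0.161 with other windows. From 1 to 5 h to 6 to 8 h, 16.2% of all genes passed as higher in the lymphoid organs. The excess there was 1.35 for Col4a1 (adjusted p = 0.000173), 1.28 for Col4a2 (0.00127), 1.22 for Col18a1 (0.000859) and 0.95 for Col12a1 (0.00106). It was 1.02 for Col6a4 (0.00300) and 0.56 for Col6a1 (0.0250), the latter lost without the 8 h small intestine, 8 h large intestine or 1 h thymus library (0.0557, 0.0618 and 0.0560).

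At 24 h against 0 h, the excess in spleen and thymus was 1.67 for Col5a2 (0.00369), 1.96 for Col3a1 (0.0160), 1.12 for Col6a1 (0.0213) and 1.53 for Col1a2 (0.0497). In this contrast 17.6% of all genes passed as higher, and the share of collagens lies near that. The Col1a2 call was lost in 27 of 38 alternatives (adjusted p up to 0.0774). In spleen alone the excess was 1.78 for Col5a2 (0.0282), 1.66 for Col6a1 (0.0209) and 1.63 for Col6a2 (0.0399), where 5.19% of all genes were higher. At 24 h each organ has 1 library. Among the 18 collagens tested in NIH3T3, none had a library at 9 to 12 h that stood apart by Dixon's test.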

How the results depend on the processing

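Over all alternatives, 2547 values of called collagens were recomputed: 2335 kept direction and call, 211 kept direction and lost the call, and 1 turned (Col4a5, spleen over thymus, 0.037 under quantile normalization). The 6 to 8 h calls of Col4a1, Col4a2 and Col18a1 in spleen and thymus, and the 24 h calls of Col3a1 in spleen, thymus and NIH3T3, held under all alternatives run. The single 0 h and 24 h libraries, on which each 24 h call rests, could not be left out. With pseudocount 0.1 the number of collagens called became 1 from 2 (spleen, 1 to 8 h over 0 h), 4 from 9 (spleen, 24 h over 6 to 8 h), 5 from 8 (thymus, 24 h over 0 h) and 0 from 1 (1 to 8 h, lymphoid over intestines). Separate fits gave 0 from 2 (spleen, 1 to 8 h) and 4 from 8 (thymus, 24 h over 0 h), and no filter gave 1 from 2 (NIH3T3, 1 to 8 h). Other windows gave 0 from 1 (1 to 8 h, lymphoid over intestines). Without the spleen library of 6 h and that of large intestine at 2 h, the number was 1 from 0 (large intestine, 1 to 8 h) and 5 from 3 (24 h, spleen over intestines). The causes were not tested. Leaving out 1 library at a time gave 0 to 1 (large intestine, 1 to 8 h), 0 to 2 (large intestine, 6 to 8 h), 0 to 1 (large intestine, 24 h over 6 to 8 h), 4 to 9 (spleen, 24 h over 6 to 8 h), 4 to 8 (NIH3T3, 24 h over 6 to 8 h), 3 to 7 (NIH3T3, 9 to 12 h), 0 to 1 (1 to 8 h, lymphoid over intestines) and 3 to 5 (24 h, spleen over intestines). Only the larger relative changes of a count are listed here, and other counts changed by less. Examples are 6 to 7 against 8 in the main fit (thymus, 24 h over 0 h), 9 to 12 (spleen, 24 h over 0 h) and 19 to 22 (level, spleen against thymus). Quantile normalization moved the median of all genes at 24 h over 0 h by -0.12 in spleen and -0.29 in thymus, and at 24 h over 6 to 8 h in thymus by -0.15. Calls among all genes for 24 h over 0 h then went from 1561 higher and 886 lower to 1369 and 1385 in spleen, and from 3281 and 2314 to 2671 and 3558 in thymus. For 6 to 8 h over 1 to 5 h they went from 1834 and 1447 to 1663 and 2078 in spleen and from 2318 and 1674 to 2261 and 2792 in thymus. No paired analysis was possible because the labels carry no replicate numbers that could pair libraries. The hour could be used as a block: with it in the 2 level comparisons between tissues, all 36 called values kept direction and call, and the other comparisons were not fitted with it. Depth limits the genes near 1 FPKM, for which no counting interval could be set.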

Other observations

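Col4a5 and Col4a6 on chromosome X lie 1274 bases apart, and both encode chains of type IV networks. Col4a6 had a median of 17.3 FPKM at 1 to 8 h in NIH3T3, beside 24.2 FPKM for Col4a5. In thymus Col4a5 reached 3.99 FPKM at 24 h, while the highest Col4a6 value of that organ was 0.366 FPKM.

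The ratio of chains of 1 trimer differed between libraries. Over all libraries of a system, the ratio of Col4a1 to Col4a2 FPKM was 1.19 to 1.53 in spleen, with the highest at 24 h, and 1.03 to 2.22 in small intestine. The ratio of Col1a1 to Col1a2 FPKM was 0.219 to 0.303 in NIH3T3, 0.256 to 0.387 in spleen and 0.435 to 0.980 in small intestine. The small intestine values rest on low levels, with Col1a1 at 2.74 to 5.52 FPKM and Col4a2 at 3.70 to 6.36 FPKM. No test was made of these ratios.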
